A study of Rattus norvegicus with 29 samples.

Results

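The proteasome subunit genes were followed as 48 microarray probes for 40 genes, out of 41012 probes on the array, of which 28193, under 24225 gene names, were tested. A probe was a member when its gene name in the scanner files was Psma, Psmb, Psmc, Psmd or Psme followed by a number and its Cy5 signal stood well above background on at least 4 arrays. All 48 probes so named did so on all 29 arrays and none was saturated, so the filter removed no member. The genes comprised 7 of the alpha ring, 4 non-catalytic beta subunits, 3 constitutive and 3 immunoproteasome catalytic subunits, 6 ATPases and 10 other subunits of the 19S particle, 3 chaperones of its assembly, 3 PA28 activator genes and the PA200 activator gene Psme4. Of the 40 genes, 7 had more than 1 probe.

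The RNA came from peripheral blood mononuclear cells (PBMC), the lymphocytes and monocytes that a Ficoll density gradient separates from blood, of 29 male Wistar rats aged 6 months. The cafeteria fed, fasted and refed groups held 5 rats each, and the control fed, fasted and refed groups held 4, 5 and 5 rats. Cafeteria rats, which the labels call diet-induced obese, were offered an energy-dense, fatty diet beside chow for 4 months from the age of 2 months, and control rats ate chow alone over that time. Fed rats ate freely, fasted rats went 14 h without food, and refed rats went 14 h without food and then ate freely for 6 h; 1 control sample had been left out by the submitters for its small RNA yield. Each array carried the RNA of 1 rat in the Cy5 channel and a pool of RNA from all groups in the Cy3 channel. Every value below is the log2 ratio of the rat's signal to that pool, and a number after a group is the rat's number in the labels.

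The proteasome degrades proteins that carry ubiquitin. Its 20S core is a barrel of alpha and beta rings, in which the beta subunits Psmb5, Psmb6 and Psmb7 carry the cutting sites. The 19S particle caps the core, binds ubiquitin and unfolds the protein with its ATPases, while PA28 and PA200 are caps that open the core without ATP. Immune cells also make the immunoproteasome, in which Psmb8, Psmb9 and Psmb10 take the places of Psmb5, Psmb6 and Psmb7. Interferon gamma is the classical inducer of these 3 subunits and of the PA28 genes Psme1 and Psme2.

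The arrays lay on 8 slides, were scanned on 1 day, and were read by the image software in 2 runs. Each run held rats of all 6 groups, in unequal numbers. Correlations between arrays over the tested probes ran from -0.28 to 0.61. Of the marker lists, 10 of 11 T cell, 7 of 10 B cell, 8 of 9 NK cell and 10 of 10 monocyte genes were measured, as were 10 of 16 platelet, 8 of 10 red cell precursor, 8 of 11 neutrophil and 6 of 8 plasma cell genes. The mean of the 10 platelet genes had its lowest and highest rat at -0.82 and 0.37 among cafeteria fed rats, at -0.39 and 0.23 when fasted and at -1.72 and 0.40 when refed. Among control rats these were -0.40 and 1.05 for the fed, 0.44 and 0.80 for the fasted and -1.42 and -0.25 for the refed state. In bulk samples, fewer cells of a type and less RNA per cell cannot be told apart. The number of arrays per group limits the precision of every value.

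Few proteasome probes passed the test for diet or feeding state. A probe is counted as changed where limma's moderated test, adjusted by the Benjamini-Hochberg method over all 28193 probes, gave an adjusted p below 0.05. In refed against fasted control rats 4 of 48 member probes changed, or 8.33%, against 9.02% of all tested probes, a share near the background. At an unadjusted limma p below 0.05 were 11 of 48 members and 6192 of all 28193 tested probes. The median absolute change was 0.09 for both. Both probes of Psme4 fell, where 5.95% of all probes fell, and the probes of Psmb3 and Psmb10 rose, where 3.07% rose. Over all tested probes 865 rose and 1678 fell in that comparison. With the authors' deposited table in place of the ratios the split was 3306 up and 1123 down, and the median of all probes was higher by 0.15 in refed rats, against 0.01 with the ratios. Median centring alone gave 30 up and 891 down, the Cy5 channel by itself 1236 and 1407, and the scanner's processed signals 1249 and 1563.

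In the diet comparisons Psme4 was the member that passed the test. Its probe 1 fell in cafeteria fasted against control fasted rats, as 1 of 48 members where 1.13% of all probes changed. It also fell in the mean of the cafeteria minus control differences over the 3 feeding states, as 1 of 48 where 3.93% of all probes changed. No member passed limma's test in cafeteria fed against control fed rats (background 0.00355%) or in cafeteria refed against control refed rats (0.369%), where 2 and 3 members had an unadjusted p below 0.05. At that unadjusted level stood 1374 and 2377 of all 28193 tested probes.

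No member passed for fasting. In fasted against fed rats 0 of 48 passed limma's test with the cafeteria diet (background 0.823%, 4 members at an unadjusted p below 0.05) and 0 of 48 with the control diet (background 0.0816%, 1 member). Of all 28193 tested probes, 2942 and 3243 were at that unadjusted level. Refed against fasted cafeteria rats gave 0 of 48, against 1.32% of all probes. At an unadjusted p below 0.05 were 3 members and 3695 of all 28193 tested probes. Refed against fed rats gave no call over the whole array with either diet (0%), with 1 member in cafeteria and 13 members in control rats at an unadjusted p below 0.05. Over all 28193 tested probes these counts were 1184 and 1604. The fasting and refeeding responses of the diets differed by limma's test for no probe of the array (0% in both), with 0 and 1 members at an unadjusted p below 0.05. Over all 28193 tested probes these were 904 and 2097.

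**Figure D1:**
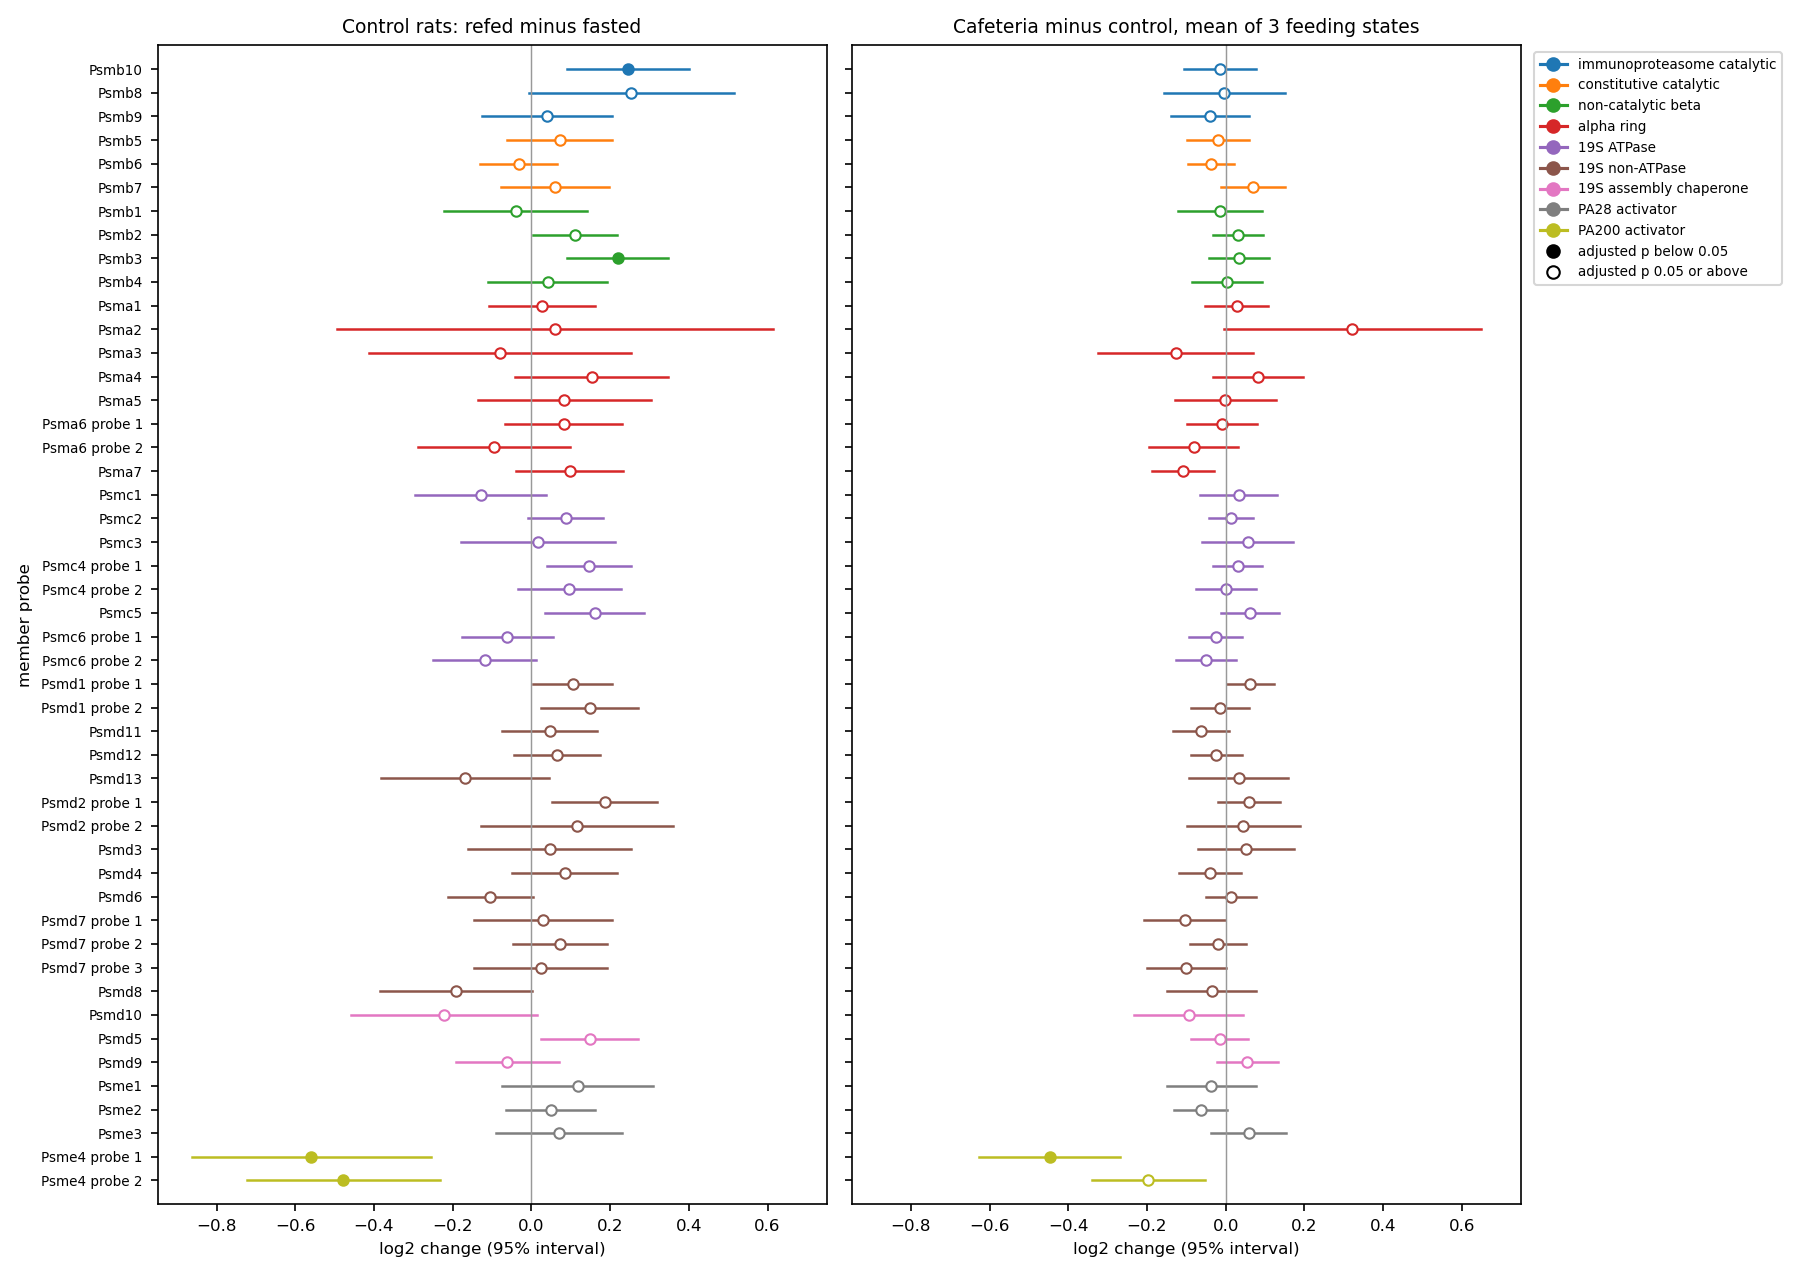
Log2 change with its 95% interval for each of the 48 member probes, coloured by class, in the comparisons named above the panels. Filled points have an adjusted p below 0.05. In refed minus fasted control rats the Psme4 probes, at -0.56 and -0.48, lie apart from the other 46, which run from -0.22 to 0.25.

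Psme4 encodes PA200, the large single-chain cap of the 20S core. Its probes lie on the plus strand of rat chromosome 14 in the rn4 assembly, probe 1 at chr14:111990483-111990542 and probe 2 at chr14:111981267-111981326. The sequence around its start is shown because Psme4 was the member called in most comparisons. It runs from 250 bases before to 50 after the RefSeq start, and capitals mark its match to the antioxidant response element core TGACNNNGC.
Psme4, RefSeq GRCr8 chr14:108706393-108706692, plus strand: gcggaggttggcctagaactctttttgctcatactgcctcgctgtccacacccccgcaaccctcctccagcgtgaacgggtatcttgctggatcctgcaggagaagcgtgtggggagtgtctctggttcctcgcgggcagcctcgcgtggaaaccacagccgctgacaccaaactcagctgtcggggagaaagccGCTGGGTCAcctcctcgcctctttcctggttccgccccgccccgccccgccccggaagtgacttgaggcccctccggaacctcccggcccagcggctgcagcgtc

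Probe 1 of Psme4, the brighter of the pair, had log2 ratios of 0.07, 0.06, -0.10, -0.30 and 0.15 in control refed rats, against 0.29, 0.55, 0.80, 0.48 and 0.55 in control fasted rats. Every refed control rat lay below every fasted one, a separation seen for 9.96% of all tested probes. The difference was -0.56 ± 0.15 (SE), 1.47-fold lower in refed rats, with a 95% interval of -0.86 to -0.26 and a limma adjusted p of 0.0149. Probe 2 had 0.10, -0.08, -0.32, -0.26 and -0.04 in control refed rats, against 0.13, 0.38, 0.58, 0.42 and 0.28 in control fasted rats. These groups did not overlap either. The difference of probe 2 was -0.48 ± 0.12 (SE), with a limma adjusted p of 0.0103. On the 3 slides that held both control groups the refed rats were lower with probe 1 each time, with differences of -0.64 to -0.23. With slide as a block probe 1 missed the threshold, at -0.46 (limma adjusted p 0.0724), while probe 2 passed. With median centring alone neither passed, at -0.68 for probe 1 and -0.57 for probe 2 (limma adjusted p 0.136 and 0.126). Within image-reading runs 1 and 2, probe 1 differed by -0.47 and -0.63 and probe 2 by -0.37 and -0.49, none of which passed the test at that size.

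All 10 platelet genes fell in the same comparison, with a median log2 change of -1.56. With the platelet mean of each array as a covariate, the differences of the Psme4 probes were -0.86 and -0.72, larger than without it, and the adjusted p by limma was 0.073 for both. The platelet mean of every refed control rat lay below that of every fasted one. A fit with this covariate therefore cannot tell platelet content and refeeding apart. Without control fasted rat 8 or control refed rat 12 probe 1 missed the threshold, at -0.49 both times (limma adjusted p 0.0522 and 0.0535), while probe 2 passed with any 1 rat left out.

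In cafeteria rats the refeeding differences of Psme4 had the same sign and did not pass. Probe 1 had 0.18, -0.61, -0.08, -0.38 and -0.56 in cafeteria refed rats, against -0.15, 0.31, -0.18, 0.01 and -0.38 in cafeteria fasted rats, and these groups overlap. The difference was -0.21 (95% interval -0.52 to 0.09, limma adjusted p 0.572), and that of probe 2 was -0.27 (-0.52 to -0.03, adjusted p 0.314). Without cafeteria fasted rat 5 they were -0.11 and -0.18, and without cafeteria refed rat 3 or 6 probe 1 was at -0.33 or -0.13. The test of the difference between the diets' refeeding responses gave 0.35 for probe 1 (-0.08 to 0.77, limma adjusted p 0.735) and 0.20 for probe 2 (-0.14 to 0.55, adjusted p 0.826). In refed against fed rats the probes differed by -0.18 and -0.27 with the cafeteria diet and by -0.37 and -0.26 with the control diet, and none of these passed.

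Probe 1 of Psme4 was lower in cafeteria than in control rats. In fasted rats the difference was -0.61 ± 0.15 (SE), 1.53-fold lower with the cafeteria diet, with a limma adjusted p of 0.0383. The highest cafeteria fasted rat, at 0.31, lay just above the lowest control fasted rat, at 0.29, while 4.67% of all tested probes had no such overlap. None of the 10 platelet genes passed between these groups, and their median difference was -0.73. Nor did any of the 6 measured plasma cell genes, at a median of -0.73 and a range of -1.11 to 0.05. The part of either cell type was not tested. This comparison shares its control fasted rats with the refeeding comparison of the control diet. Probe 2 differed by -0.34 in fasted rats and did not pass (adjusted p 0.167). The call of probe 1 was lost without any 1 of control fasted rats 5, 8, 11 and 14 or cafeteria fasted rats 2, 8, 11 and 14, at -0.64 to -0.54. It was also lost in each of the 5 other treatments of the signals, at -0.62 to -0.52. With slide or run as a block the call was lost too. Run 1 held 4 of 5 control fasted rats and 1 of 5 cafeteria fasted rats.

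In fed rats probe 1 had 0.14, -0.09, -0.23, -0.10 and -0.28 with the cafeteria diet, against 0.59, 0.39, 0.52 and -0.11 with the control diet. Control fed rat 13 was the low one of its group and lay within the cafeteria range. The fed difference was -0.46 (95% interval -0.78 to -0.14, limma adjusted p 0.714), and the refed difference was -0.27 (-0.57 to 0.04, adjusted p 0.675).

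Averaged over the 3 feeding states, probe 1 was lower with the cafeteria diet, the difference being -0.45 ± 0.09 (SE), with a 95% interval of -0.63 to -0.27 and a limma adjusted p of 0.00199. Probe 2 differed by -0.20 ± 0.07 (SE) and did not pass (adjusted p 0.132). None of the 10 platelet genes passed in this comparison, and their median difference was -0.23. All 8 measured red cell precursor genes were higher with the cafeteria diet, at a median of 0.47, and 1 passed, Ahsp at 0.99 (limma adjusted p 0.0180). Of the 8 measured neutrophil genes, at a median of 0.13, 1 passed, Camp at 0.80 (limma adjusted p 0.0142). All 6 measured plasma cell genes were lower with the cafeteria diet, at a median of -0.39, and none passed. The part of these cell types in the result was not tested. With the platelet mean as a covariate both Psme4 probes passed, at -0.50 and -0.24, and with median centring alone probe 1 did not, at -0.36 (limma adjusted p 0.382). Within run 1 probe 1 differed by -0.16 and within run 2 by -0.53, neither past the threshold, and with the run as a term over all arrays by -0.42 (limma adjusted p 0.00405). Run 1 held 4 of 5 cafeteria fed and 1 of 5 cafeteria fasted rats, against 2 of 4 control fed and 4 of 5 control fasted rats.

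**Figure D2:**
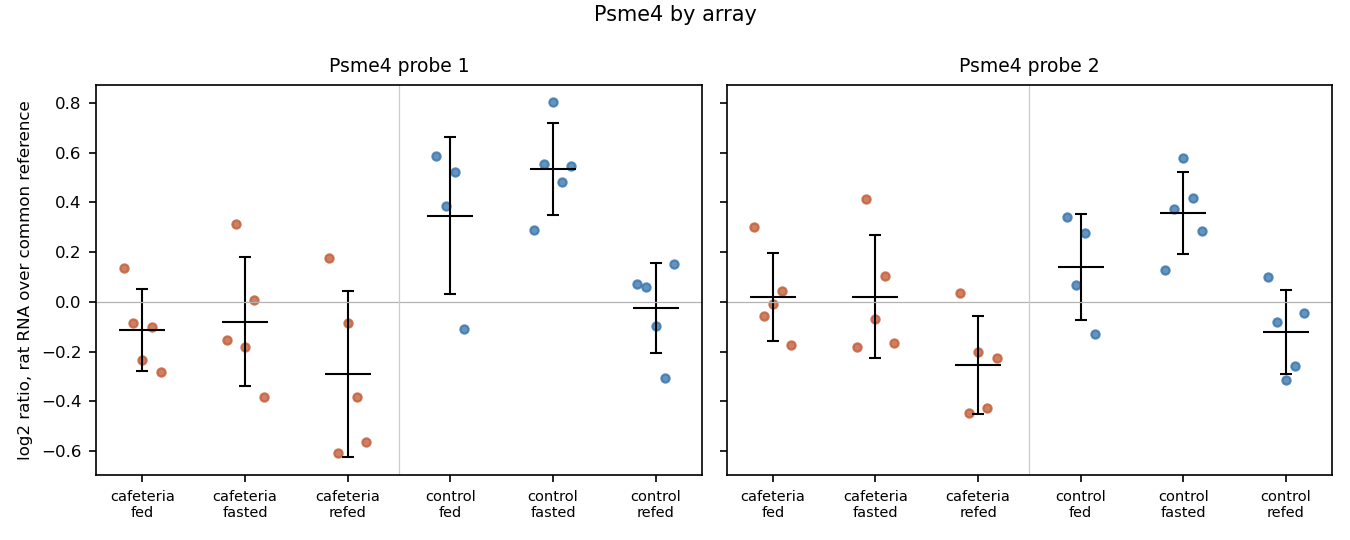
Log2 ratio of rat RNA over the common reference for the Psme4 probes in every rat of the 6 groups. Points are rats, and the black bars are the mean and SD. With probe 1 all 5 control refed rats lie below all 5 control fasted rats, the lowest of which is at 0.29.

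Among the catalytic subunits Psmb10 was the one that passed a test. It carries the trypsin-like site of the immunoproteasome in place of Psmb7, and its probe lies at chr19:35777711-35777770 (rn4, minus strand). It had log2 ratios of 0.14, 0.47, 0.43, 0.17 and 0.39 in control refed rats, against 0.03, 0.10, -0.05, 0.14 and 0.17 in control fasted rats. The groups overlapped only at their edges. The difference was 0.25 ± 0.08 (SE), 1.19-fold higher in refed rats, with a limma adjusted p of 0.0374. In control fed rats Psmb10 had 0.14, -0.17, -0.02 and 0.14, all below the refed rats, if only just at the edge. Such a separation was seen for 1.94% of all tested probes. The refed minus fed difference of 0.30 ± 0.08 (SE) did not pass (limma adjusted p 0.377). In cafeteria rats refed minus fasted was 0.08 (95% interval -0.07 to 0.24, adjusted p 0.695).

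The rise of Psmb10 stood beside the fall of the platelet genes, and platelet content and refeeding cannot be told apart in control rats. With the platelet mean as a covariate the rise was 0.10 (limma adjusted p 0.678), and with median centring alone it was 0.00. It also missed the threshold with the scanner's processed signals, with the authors' deposited table, with no background subtraction and within either run, at 0.17 to 0.26, and it passed in 6 of 13 alternatives. Without any 1 of control fasted rats 2, 5 and 8 or control refed rats 6, 9 and 15 it missed the threshold, at 0.21 to 0.25.

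Psmb3, a beta subunit without a cutting site, also rose. Its probe spans chr10:86458524-86459455 (rn4, plus strand). It had -0.02, 0.17, -0.09, 0.08 and -0.02 in control refed rats, against -0.14, -0.12, -0.24, -0.15 and -0.34 in control fasted rats. These groups did not overlap, as for 9.96% of all tested probes. The difference was 0.22 ± 0.06 (SE), 1.16-fold higher in refed rats, with a limma adjusted p of 0.0255. In cafeteria rats it was -0.02 (95% interval -0.15 to 0.11, adjusted p 0.930). The refeeding responses of the diets differed by -0.24 (-0.42 to -0.06), the smallest unadjusted p of any member for that question, and this did not pass (limma adjusted p 0.631). With median centring alone the control difference was 0.05. With the platelet covariate it was 0.23, with an adjusted p of 0.230 by limma. It also missed the threshold with the scanner's processed signals, the Cy5 channel by itself, slide as a block and within either run, at 0.20 to 0.33, and it passed in 6 of 13 alternatives. With 1 rat left out it missed the threshold without control fasted rat 8 or 14 or control refed rat 6 or 12, at 0.18 to 0.21.

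The other immunoproteasome subunits did not pass. Psmb8, which takes the chymotrypsin-like place of Psmb5, had 0.00, 0.15, -0.19, 0.08 and -0.12 in cafeteria refed rats, against -0.65, -0.28, -0.34, -0.41 and -0.20 in cafeteria fasted rats. All refed rats lay above all fasted ones, as for 3.24% of all tested probes. The difference was 0.36 ± 0.13 (SE), with a 95% interval of 0.10 to 0.62 and a limma adjusted p of 0.179. In control rats it was 0.25 (-0.01 to 0.52, adjusted p 0.243). With the values of the authors' deposited table Psmb8 passed there, at 0.37 (limma adjusted p 0.0457), where 22% of all probes passed. Control fed rat 7 stood low for Psmb8, at -0.92, with 0.08, -0.07, -0.92 and -0.24 in the 4 control fed rats. In the fit without that rat, Psmb8 passed in refed against fasted cafeteria rats, at 0.36 with a limma adjusted p of 0.0435.

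Psmb9, which takes the caspase-like place of Psmb6, had -0.12, 0.09, 0.04, 0.04 and -0.07 in control refed rats, against -0.06, -0.21, -0.06, 0.12 and -0.01 in control fasted rats. These groups overlap, and the difference was 0.04 (95% interval -0.12 to 0.20, limma adjusted p 0.829). In cafeteria rats it was -0.09 (-0.26 to 0.09, adjusted p 0.709). The scanner software had marked the Psmb9 spot of cafeteria fasted rat 5 as an outlier and it was left out, so that group has n = 4 here.

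The constitutive subunits moved by less in most comparisons. Over the 9 comparisons of 2 groups the differences of Psmb5, Psmb6 and Psmb7 lay between -0.10 and 0.12, and none passed. In refed against fasted control rats they were 0.07 for Psmb5, -0.03 for Psmb6 and 0.06 for Psmb7, with limma adjusted p from 0.577 to 0.750. Psmb6 was among the steadiest members, with an SD within groups of 0.07.

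**Figure D3:**
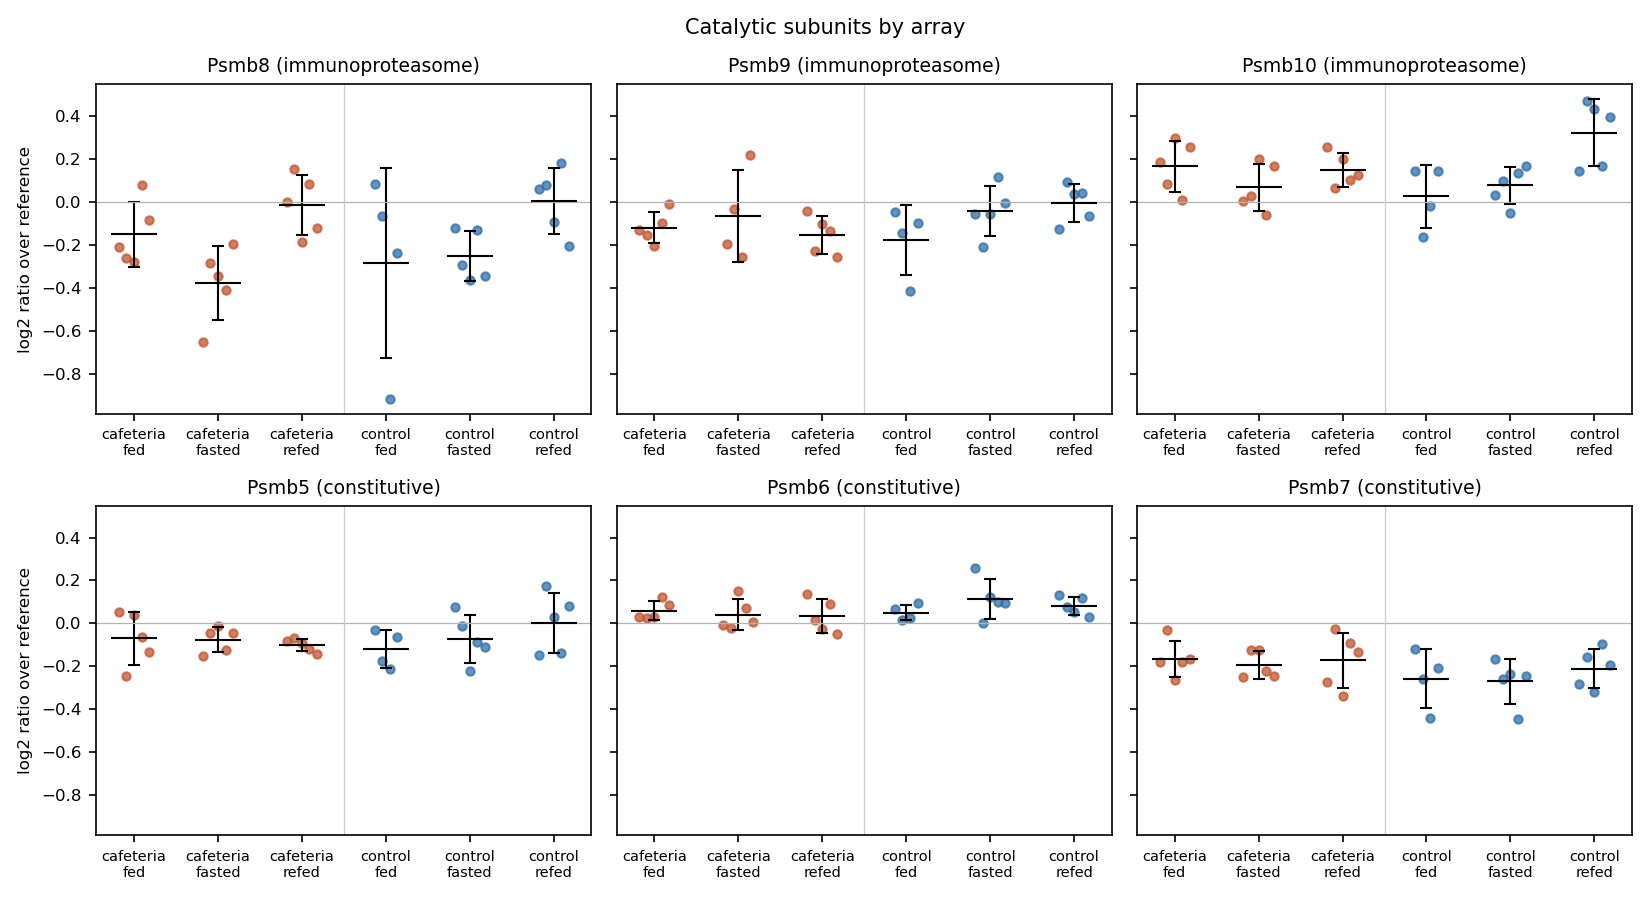
Log2 ratio over the common reference for the immunoproteasome subunits (top) and the constitutive subunits they replace (bottom) in every rat. Points are rats, and the black bars are the mean and SD. Psmb10 averages 0.32 in control refed and 0.08 in control fasted rats, while Psmb6 lies between -0.05 and 0.26 in all rats.

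Start regions of Psmb10 and Psmb8 are shown because interferon acts on immunoproteasome genes through known elements. Those of Psmb3, which also rose, and of Psmb5, which Psmb8 replaces, are set beside them. The windows of Psmb6, Psmb7 and Psmb9 are not printed, and those of Psmb7 and Psmb9 held no match. All start regions come from RefSeq (GRCr8), where 37 of the 40 genes matched. Both strands were searched for the interferon-stimulated response element, taken as GAAA, any 2 bases and GAAA again, the gamma-activated site as TTCNNNGAA and the antioxidant response element core as TGACNNNGC. Capitals mark the matches, and no matches overlap in the sequences printed.
Psmb10, RefSeq GRCr8 chr19:50743243-50743542, minus strand: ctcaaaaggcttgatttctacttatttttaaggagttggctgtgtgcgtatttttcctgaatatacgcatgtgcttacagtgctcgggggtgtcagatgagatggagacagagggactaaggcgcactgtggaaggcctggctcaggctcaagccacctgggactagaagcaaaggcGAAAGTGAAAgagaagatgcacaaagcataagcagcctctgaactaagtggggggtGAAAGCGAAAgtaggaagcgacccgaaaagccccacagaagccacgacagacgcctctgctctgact
Psmb3, RefSeq GRCr8 chr10:83193537-83193836, plus strand: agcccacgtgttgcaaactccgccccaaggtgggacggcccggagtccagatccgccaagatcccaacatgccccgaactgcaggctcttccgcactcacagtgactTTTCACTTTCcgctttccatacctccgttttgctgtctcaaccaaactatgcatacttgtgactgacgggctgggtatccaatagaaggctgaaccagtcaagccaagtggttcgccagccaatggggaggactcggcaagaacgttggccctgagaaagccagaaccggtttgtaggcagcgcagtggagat
Psmb8, RefSeq GRCr8 chr20:4656982-4657281, minus strand: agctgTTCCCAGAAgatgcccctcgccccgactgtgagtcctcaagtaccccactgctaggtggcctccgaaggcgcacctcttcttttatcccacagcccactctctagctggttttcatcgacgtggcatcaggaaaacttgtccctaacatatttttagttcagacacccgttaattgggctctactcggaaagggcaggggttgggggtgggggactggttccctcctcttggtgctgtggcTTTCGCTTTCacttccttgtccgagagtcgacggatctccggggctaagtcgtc
Psmb5, RefSeq GRCr8 chr15:32047330-32047629, minus strand: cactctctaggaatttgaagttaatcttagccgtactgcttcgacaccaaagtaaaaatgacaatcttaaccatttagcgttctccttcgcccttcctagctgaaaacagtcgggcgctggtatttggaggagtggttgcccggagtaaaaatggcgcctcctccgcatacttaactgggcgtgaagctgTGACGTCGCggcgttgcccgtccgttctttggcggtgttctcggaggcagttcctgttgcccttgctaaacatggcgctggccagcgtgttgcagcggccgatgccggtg

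The Psmb10 window held 2 interferon-stimulated response elements, which begin at bases -73 and -17 with the start counted as 0, and the Psmb3 and Psmb8 windows held 1 each. That motif was in 6 of 37 member windows (16.2%), those of Psma4, Psmb3, Psmb8, Psmb10, Psmd7 and Psme2, against 3.92% of 33469 windows of all genes. The gamma-activated site was in 4 member windows (10.8%), Psmb8 among them, against 8.87% of all windows. The antioxidant element core was in 8 (21.6%), with Psme4, Psmb5 and Psmb6 among them, against 12.1%. The Psmb7 and Psmb9 windows held none of the 3 motifs. A match describes these letters and does not show that a factor binds.

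The exchange of catalytic subunits was tested as the difference, within each array, between the log2 ratios of an immunoproteasome subunit and of the subunit it replaces. With 3 pairs and 9 comparisons this gave 27 two-sided exact permutation tests, and 0 passed after Benjamini-Hochberg adjustment. The 95% intervals given beside them rest on the spread pooled over all 6 groups. An interval and its exact p can therefore differ on whether 0 is excluded. The smallest p the exact test can give is 0.00794, which for a lone difference cannot go below 0.214 after adjustment over the 27. Psmb8 minus Psmb5 reached it in refed against fasted cafeteria rats. It averaged 0.09 ± 0.13 in cafeteria refed rats, against -0.30 ± 0.13 in cafeteria fasted rats (SD, n = 5 each). The groups did not overlap and differed by 0.39 (95% interval 0.11 to 0.66, adjusted exact permutation p 0.214), by 0.32 within run 1, with 1 rat a group, and by 0.40 within run 2. In control rats the difference was 0.18 (-0.09 to 0.46).

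Psmb10 minus Psmb7 averaged 0.53 ± 0.19 in control refed rats, against 0.35 ± 0.16 in control fasted rats (SD, n = 5 each). That difference was 0.19 (95% interval -0.03 to 0.41, exact permutation p 0.127, adjusted 0.455). Against control fed rats, at 0.28 ± 0.14 (SD, n = 4), the control refed rats were higher by 0.25 (0.02 to 0.48, exact permutation p 0.0556, adjusted 0.455). Psmb9 minus Psmb6 differed by -0.10 to 0.14 over the 9 comparisons. The intervals leave room for changes of this size, so they do not show that the paired subunits moved alike.

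**Figure D4:**
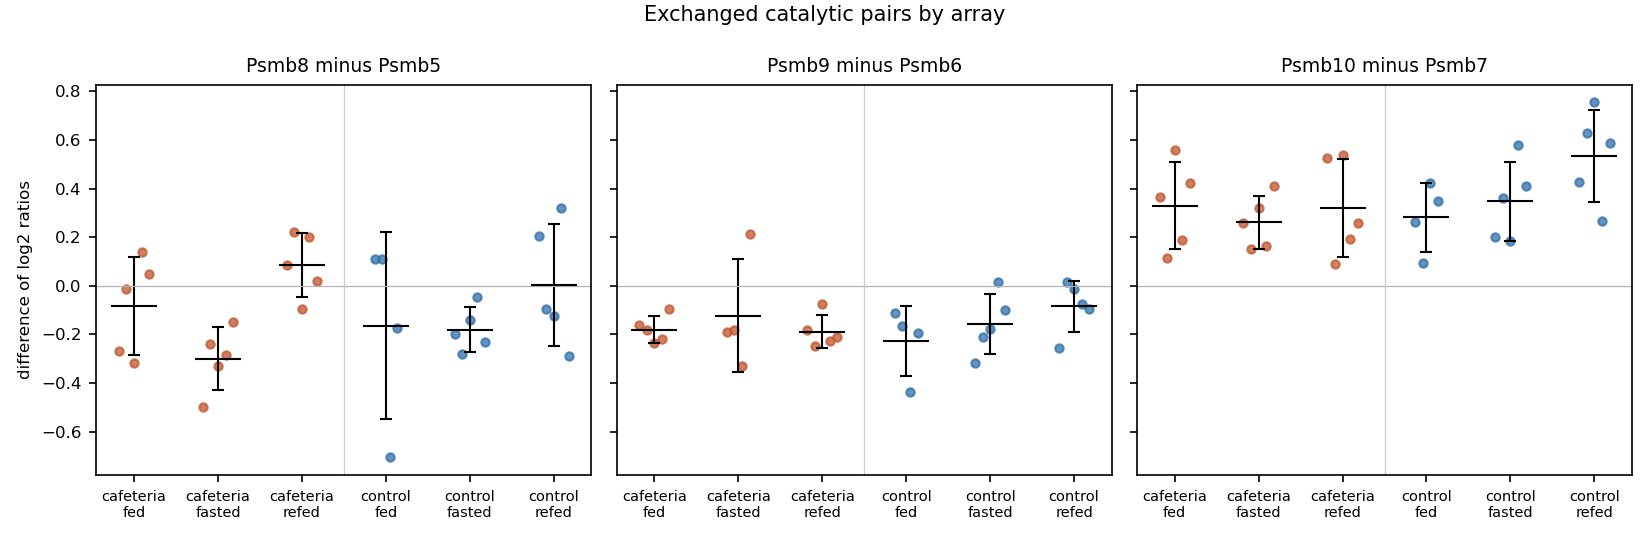
Difference of log2 ratios between each immunoproteasome subunit and the subunit it replaces, for every rat of the 6 groups. Points are rats, the black bars are the mean and SD, and Psmb9 minus Psmb6 has 4 cafeteria fasted rats. For Psmb8 minus Psmb5 the cafeteria refed rats, from -0.10 to 0.22, lie above all cafeteria fasted rats, from -0.50 to -0.15.

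The PA28 genes did not pass in any comparison of the ratios. Psme1 and Psme2 encode the alpha and beta chains of the interferon-inducible cap, and Psme3 the gamma chain of the nuclear one. Psme2 had -0.12, -0.10, -0.21, -0.10 and -0.28 in cafeteria refed rats, against -0.02, 0.10, -0.01, 0.02 and 0.02 in control refed rats. All cafeteria rats lay below all control rats, as for 2.28% of all tested probes. The difference was -0.19 ± 0.06 (SE), the smallest unadjusted p of the members in refed rats, with a limma adjusted p of 0.156. With the Cy5 channel by itself Psme2 passed there, at -0.26 (limma adjusted p 0.0292), where 0.731% of all probes passed. Psme1 had 0.03, 0.09, 0.00, 0.00 and -0.02 in control refed rats, against 0.10, -0.28, -0.60 and -0.12 in control fed rats, of which control fed rat 7 was lowest. The difference was 0.24 (95% interval 0.04 to 0.45, limma adjusted p 0.650), and 0.12 without that rat. Psme3 moved between -0.05 and 0.11 over the 9 comparisons. Cafeteria fed rat 1 stood apart from its group for Psme1 and Psme3.

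The alpha ring forms the gate of the core, and none of its 8 probes passed. In refed against fasted rats their median change was 0.04 with the cafeteria diet (range -0.25 to 0.20) and 0.07 with the control diet (range -0.10 to 0.15). With 1 rat left out the cafeteria median ran from -0.01 to 0.08, and the control median was 0.04 without control refed rat 6 and 0.05 without control fasted rat 11. Psma7 had 0.01, 0.08, -0.06, 0.03 and -0.05 in cafeteria refed rats, against 0.31, 0.15, 0.20, 0.14 and 0.08 in control refed rats. These groups did not overlap, as for 2.28% of all tested probes, with the nearest rats both at 0.08. The difference was -0.18 (95% interval -0.31 to -0.04, limma adjusted p 0.357). Psma5 had the smallest unadjusted p of the members for the difference between the diets' fasting responses, at -0.28, and did not pass (limma adjusted p 0.9997). Control fasted rat 11 and control refed rat 6 stood apart from their groups for it.

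Psma2 varied most within groups, with an SD of 0.46, wider than that of 97.8% of all tested probes. Its log2 ratios ran from -0.70 to 0.93 over the 29 rats. In the mean over feeding states it was 0.32 higher with the cafeteria diet, with an interval of -0.00 to 0.65, and did not pass (limma adjusted p 0.326). Psma3 followed with an SD of 0.27. The median SD within groups was 0.11 for the members, against 0.13 for all tested probes. The members were also brighter, with a median average log2 intensity of 12.46, against 8.21.

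Psmb1, Psmb2 and Psmb4, the other non-catalytic beta subunits, did not pass in any comparison. Psmb1 had the smallest unadjusted p of the members for fasting in control rats. It had 0.24, 0.04, 0.04, 0.07 and -0.10 in control fasted rats, against -0.62, 0.03, -0.20 and 0.05 in control fed rats. Control fed rat 1 was the low one, and the groups overlap. The difference was 0.24 (95% interval 0.05 to 0.43, limma adjusted p 0.293), and 0.10 without that rat.

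The 6 ATPases of the 19S base unfold the protein, and none of their 8 probes passed. In refed against fed control rats their median difference was 0.13, against 0.01 for all tested probes. Of the 8 probes, 4 had an unadjusted limma p below 0.05, as had 1604 of all 28193 tested probes. Without control fed rat 7 that median was 0.03. Psmc2 had 0.04, 0.12, 0.05, 0.10 and 0.06 in control refed rats, against 0.02, -0.07, -0.20 and -0.06 in control fed rats. All refed rats lay above the fed ones, as for 1.94% of all tested probes. The difference was 0.15 (95% interval 0.05 to 0.25, limma adjusted p 0.445). The 14 probes of the other 19S subunits, which include the ubiquitin receptor Psmd4, had a median of 0.05 in the same comparison, and none passed. Without control fed rat 7 their median was 0.01, and without control fed rat 1 it was 0.11.

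Over all 48 members, refed against fed rats had a median of -0.02 with the cafeteria diet, with 16 of 48 above 0, and of 0.09 with the control diet, with 39 of 48 above 0. For all 28193 tested probes the medians were 0.00 and 0.01, with 14183 and 15039 above 0. The sign of the members' medians depended on the scaling. With median centring alone they were 0.14 with the cafeteria diet and -0.06 with the control diet. The other treatments of the signals kept the signs. The medians were -0.01 and 0.07 with processed signals, -0.02 and 0.11 with Cy5 alone, and -0.02 and 0.05 with no background subtraction. With the authors' deposited table they were -0.08 and 0.20, where all probes had medians of -0.04 and 0.13. Without control fed rat 7 the control median was 0.05, and the cafeteria median took either sign with 1 rat left out. None of the 48 passed with either diet. The largest of the control differences were 0.30 for Psmb10 and 0.29 for Psmb8, the second of which was 0.08 without control fed rat 7, and the lowest was -0.37 for Psme4 probe 1.

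Psmd5, Psmd9 and Psmd10 are chaperones that hold the ATPases until the 19S base is complete, and none passed. In fasted against fed cafeteria rats the smallest unadjusted p of the members were those of Psmd9 and Psmd5. Psmd9 had -0.01, 0.14, 0.25, 0.16 and 0.12 in cafeteria fasted rats, against 0.02, -0.05, -0.05, -0.03 and -0.01 in cafeteria fed rats. All but 1 of the fasted rats lay above all fed rats. The difference was 0.16 (95% interval 0.03 to 0.29, limma adjusted p 0.329). Psmd5 differed the other way, by -0.15 (-0.27 to -0.02, adjusted p 0.344).

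The diets share no rats, so their responses can be set side by side, although all arrays share the reference pool. Over the 48 probes the refeeding differences of cafeteria and control rats correlated at r = 0.59, against 0.58 over all tested probes, and at r = 0.42 over the 46 probes other than those of Psme4. For fasting r was 0.33, against 0.46 over all tested probes. The sign was the same for 31 of 48 in refeeding and for 23 of 48 in fasting, and was not counted over all tested probes. Probes are not independent, so these values are a description and carry no test.

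**Figure D5:**
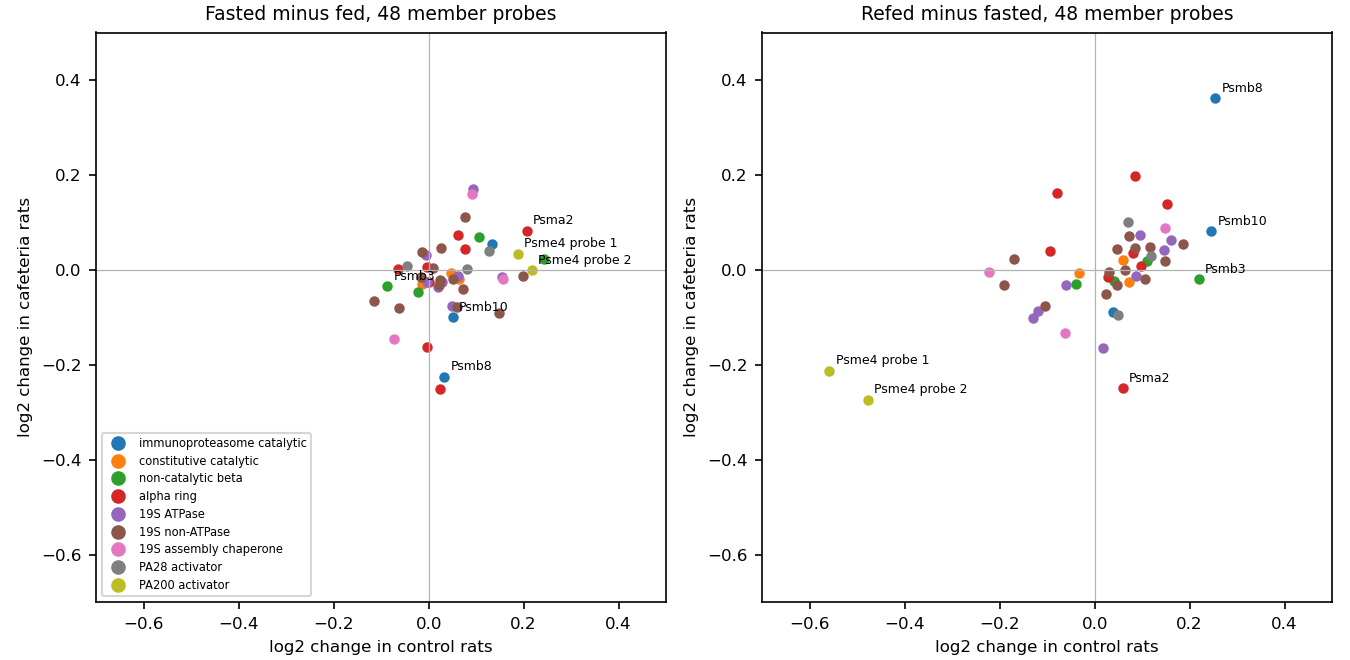
Log2 change of the 48 member probes in cafeteria rats (vertical) and control rats (horizontal), for the responses named above the panels, coloured by class. In refed minus fasted rats the Psme4 probes lie lowest in control rats, at -0.56 and -0.48, and Psmb8 lies highest in cafeteria rats, at 0.36.

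Among regulators and assembly factors of the proteasome 13 of 17 genes were measured, and 1 rose and 1 fell in refed against fasted control rats, where 9.02% of all probes changed. Nfe2l2, the antioxidant transcription factor NRF2, rose by 0.61 ± 0.13 (SE, limma adjusted p 0.00362). Ddi2, a protease that activates the related factor NRF1, fell by 0.27 (adjusted p 0.0187). Adrm1, a ubiquitin receptor of the 19S particle, rose in cafeteria fasted against control fasted rats by 0.28 (limma adjusted p 0.0476) and in the mean over feeding states by 0.18 (adjusted p 0.00770). In those diet comparisons 1.13% and 3.93% of all probes changed. These counts, and those of the lists that follow, are a description and carry no test. How the listed genes fared under the alternative treatments was not examined. In refed against fasted control rats all 10 platelet genes fell as well, at a median of -1.56. Platelet content and refeeding cannot be told apart for the listed genes called there. None of the 13 passed in the other comparisons.

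Of 16 genes of ubiquitin supply and its shuttles, 1 fell after refeeding in each diet, where 1.32% of all probes changed with the cafeteria and 9.02% with the control diet. Ubqln2, a shuttle that carries ubiquitin-tagged proteins to the proteasome, fell in cafeteria rats by 0.35 (limma adjusted p 0.0103), while its other probe was at 0.00. The polyubiquitin gene Ubb fell in control rats by 0.37 (adjusted p 0.00814), with its other probe at -0.25.

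Of 11 genes that trim and load the peptides made by the proteasome, 2 fell in refed against fasted control rats, where 5.95% of all probes fell. The platelet genes fell in the same comparison at a median of -1.56, and with their mean as a covariate the calls over the whole array numbered 10, against 2543 without it. Platelet content and refeeding cannot be told apart here, since the platelet means of these control groups do not overlap. B2m, the light chain of class I molecules, fell by 1.16 ± 0.29 (SE, limma adjusted p 0.0107), with its 3 other probes at a median of -0.82. The loading factor Tapbp fell by 0.36 (adjusted p 0.0164). In the mean over feeding states, where 3.93% of all probes changed, 2 of the 11 fell with the cafeteria diet, the chaperone Calr by 0.82 (limma adjusted p 5.87e-05) and the peptidase Tpp2 by 0.20 (adjusted p 0.0302). Calr also fell in cafeteria fasted against control fasted rats, by 0.96 (adjusted p 0.0131).

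Of 11 measured interferon regulators, from a list of 13, 2 fell with the cafeteria diet in the mean over feeding states, where 3.93% of all probes changed. Jak1, a kinase of interferon receptors, fell by 0.55 ± 0.07 (SE, limma adjusted p 1.32e-05), with its other probe at -0.89. It fell too in cafeteria against control rats that were fasted, by 0.44, and refed, by 0.63, where 1.13% and 0.369% of all probes changed. Irf2, a factor that binds interferon-stimulated response elements, fell by 0.56 (adjusted p 0.000444). In refed against fasted control rats 1 of the 11 changed, against 9.02% of all probes, the receptor kinase Jak2, which fell by 0.41 (adjusted p 0.00355).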

How the data were processed

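Gene expression in PBMC of 29 rats was measured on Agilent two-colour rat arrays. The deposited scanner files, written by Feature Extraction 9.5.1.1 per the file headers, give mean and background intensity per spot, with flags. Per the labels, the log2 values of the authors' deposited table are normalized Cy5 signal and not ratios. Their scale was read from the match to each array's log2 Cy5 (lowest correlation 0.9957), and they served as an alternative. The steps of that normalization are not given in the sources used here.

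Mean intensities were background-corrected by normexp (offset 50) and normalized by loess within each array in limma 3.58.1 (R 4.3.3). Control spots had weight 0, outlier spots were left out and spots of a probe were averaged. Probes well above background in Cy5 on at least 4 arrays were tested, with 12 comparisons from 1 fit of all 29 arrays and Benjamini-Hochberg adjustment over 28193 probes. Exchanged pairs were compared by exact permutation tests. No dyes were swapped. The fit was tested on simulated data. Figures were drawn with matplotlib 3.10.9.

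Per comparison the called members were named, or the members of smallest p where none was called, and always the catalytic and activator subunits. In each pathway list the called genes were named. Members and lists were chosen with earlier results of these data known. Alternatives covered signal treatment, filters, slides, runs, platelet content, rat numbers and left-out arrays.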

Additional observations from a re-analysis of the deposited data

Results flagged for a closer look

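Among the 22 member probes named by rule, 132 groups of 4 or 5 rats were searched for a rat set apart from its group by Dixon's 95% criterion, and 8 were found on 7 arrays. Chance alone marks about 1 in 20 groups. In cafeteria rats, Psmd5 stood at 0.103 in cafeteria fed rat 7, with the others between -0.065 and -0.019. In cafeteria fed rat 1, Psme1 stood at -0.305 (others -0.164 to -0.121) and Psme3 at 0.193 (others -0.144 to -0.048). Psmd1 probe 1 stood at -0.146 in cafeteria refed rat 6 (others -0.027 to -0.005). In control rats, Psmc6 probe 2 stood at 0.552 in control fed rat 7 (others 0.161 to 0.215) and Psmd8 at 0.448 in control fasted rat 2 (others -0.249 to -0.076). Psma5 stood at 0.290 in control fasted rat 11 (others -0.256 to -0.154) and at 0.134 in control refed rat 6 (others -0.074 to -0.049).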

How the results depend on the processing

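The 4 calls in refed against fasted control rats became 0 with median centring, 3 with processed signals (both Psme4 probes and Psmd5, which rose by 0.22), 3 with no background subtraction, 5 with run as a block, 6 with Cy5 alone, 11 with the authors' deposited table, 2 with slide as a block, 0 with the platelet covariate, and 0 within run 1 and 0 within run 2, which were added after seeing the data. With 1 array left out they ranged from 1 to 5 (1 without control fasted rat 8, 2 without control refed rat 6 or 12). The 1 call in cafeteria fasted against control fasted rats became 0 with processed signals, median centring, Cy5 alone, the authors' table, no background subtraction, slide as a block or run as a block, and within either run; with 1 array left out it ranged from 0 to 1. In cafeteria refed against control refed rats the 0 calls became 1 with Cy5 alone, Psme2 at -0.26, where 0.731% of all probes were called. In the mean diet difference the 1 call became 0 with median centring, 2 with the platelet covariate, and 0 within each run; with 1 array left out it ranged from 1 to 2 (2 without control fed rat 7 or cafeteria fasted rat 5). In refed against fasted cafeteria rats leaving out 1 array gave 0 to 1. No called member changed direction in these alternatives. Values without a call did: with median centring the members' median was -0.06 in refed against fed and -0.06 in refed against fasted control rats, and 0.22 in cafeteria refed against control refed rats, against 0.09, 0.06 and -0.05 with the ratios. Psmb10 minus Psmb7 in refed against fasted cafeteria rats, at 0.06, was -0.09 with median centring, -0.04 with Cy5 alone and -0.07 with the authors' table. The causes of these shifts were not tested. The differences and medians without a call that are given with 1 rat left out were also added after seeing the data. Rats of both diets share numbers, but over 14 pairs with the same number the correlations ran from -0.15 to 0.21, with 2 over 0.1. The main fit took these rats as unpaired, and what else a shared number may stand for was not tested. With the number as a replicate block the mean diet difference gave 2 calls, as Psme4 probe 2 joined at -0.20 (limma adjusted p 0.0470). Over the whole array the calls in refed against fasted control rats numbered 2543, against 921 with median centring, 4429 of 20172 with the authors' table and 10 with the platelet covariate. The platelet means of those groups did not overlap, so the last count cannot tell platelet content and refeeding apart. In cafeteria fasted against control fasted rats 318 became 17 to 91 under the other signal treatments, in cafeteria refed against control refed rats 104 became 0 to 482, and in the mean diet difference 1107 became 92 with median centring. Array number and probe brightness limit what could be detected.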
